A study of Danio rerio with 340 samples.

Results

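The genes described here carry the light signal inside photoreceptors after an opsin has caught a photon. They were chosen by symbol as the transducin alpha subunits gnat1 (rod) and gnat2 (cone), the cone phosphodiesterase genes pde6c and pde6h, the cone channel gene cnga3a, the cone opsin kinase gene grk7a, the cone arrestin genes arr3a and arr3b, and the recoverin gene rcvrn3. Of these 9 symbols, 8 were found among the 31658 genes of the deposited count table. The symbol pde6h is not used in the table, and the reference gives it as an older name of pde6ha, which is reported only among the other genes of the pathway. Of the 8 genes found, gnat1 is the only rod form.

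In a photoreceptor, light-activated opsin switches on transducin, transducin relieves the inhibition of phosphodiesterase, and the resulting fall in cyclic GMP closes cation channels in the outer segment. The signal is shut off when an opsin kinase phosphorylates the opsin and an arrestin caps it, while recoverin restrains the kinase as long as calcium is high. Rods and cones use separate genes for most of these steps, and in zebrafish the genome duplication of bony fish left paired copies of several of them. In the zebrafish retina, cones mature first and carry vision in the early larva, and arr3a is known from red and green cones while arr3b is known from blue and ultraviolet cones.

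Single whole larvae were measured by RNA-Seq at 5 days post-fertilization, after exposure from 5–6 hours post-fertilization, in 3 experiments that each had its own untreated larvae at a dose of 0. Valproic acid, an antiepileptic and histone deacetylase inhibitor, was given at 1, 5 and 20 µM to AB, TU, RW, WIK and PET larvae (160 larvae in all). Hydroxyurea, which blocks ribonucleotide reductase, was given at 1.3, 6.6 and 33 mM to AB, TU, RW and PET larvae (104 larvae), and warfarin, a vitamin K antagonist, at 150 and 300 µM to the same 4 strains (76 larvae). AB, TU, RW and WIK are laboratory wild-type strains and PET is a pet store stock. Master solutions were made in DMSO or water, per the study's methods, and whether the larvae at dose 0 received solvent is not given in the sources used here. The 48 groups of strain and dose held 4 to 8 larvae each. The labels and methods describe 1 exposure per group, so the p-values measure the spread between larvae of that exposure, and a strain cannot be told apart from its clutch. In whole larvae, fewer photoreceptors and less RNA per photoreceptor cannot be told apart either.

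The total count per larva ran between 124136 and 14186334, with a median of 2272278. Depth moved with strain and dose. In the valproic acid experiment, RW larvae had 3202398 to 14186334 counts and PET larvae 349491 to 2020665, and the median over strains was 1861693.5 at 20 µM, against 2745997 in untreated larvae. In the hydroxyurea experiment it was 1825796 at 33 mM, against 2698895.5 in untreated larvae, and 6 or 7 of the 7 AB larvae at each exposed dose lay under 0.5 times the experiment's median. In the warfarin experiment the medians were 2023498 at 300 µM and 1750797 in untreated larvae. Levels are given as CPM, counts scaled to a common library size by TMM,, and log2 fold changes compare an exposed dose with dose 0 over strains, with the standard error (SE). A gene is called where the Benjamini-Hochberg adjusted p of edgeR's quasi-likelihood test, taken over all genes tested, is under 0.05, and "rose" or "fell" is used only of called genes. CPM here is not divided by transcript length, so levels are compared between larvae and not between genes.

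At 20 µM valproic acid, 7 of the 8 genes fell and cnga3a was not called, while 10.0% of the 21073 genes tested fell and 7.19% rose. A share introduced by "among" is the percentage of all genes tested in that comparison that were called in the same direction. The rod and the cone transducin were both low. gnat2, the cone transducin alpha subunit, had 16.0, 118 and 326 CPM (lowest, median and highest of 40 larvae) at 20 µM, against 204, 541 and 949 CPM in 40 untreated larvae. The exposed larvae filled a range that lay mostly under the untreated one: 33 of 40 were below every untreated larva, and 39 of 40 were below every untreated larva of their own strain. gnat2 was at 23.9% of its untreated level, a log2 fold change of −2.07 (SE 0.15, edgeR adjusted p = 9.81e-28). gnat1, the rod transducin alpha subunit, had 5.47, 28.3 and 56.4 CPM at 20 µM, against 48.7, 91.1 and 179 CPM in untreated larvae. All 40 exposed larvae were below every untreated larva of their own strain, and 37 were below every untreated larva of any strain. Its level was 30.1% of the untreated one (log2 fold change −1.73, SE 0.13, edgeR adjusted p = 5.94e-27).

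pde6c, the catalytic subunit of cone phosphodiesterase, had 9.57, 26.1 and 85.0 CPM at 20 µM valproic acid, against 60.1, 117 and 191 CPM in untreated larvae, and 36 of 40 exposed larvae were below all untreated ones. It fell to 27.2% (log2 fold change −1.88, SE 0.12, edgeR adjusted p = 2.92e-32). grk7a, the kinase that phosphorylates light-activated cone opsins, had the most negative fold change of the 8 genes. It had 2.86, 13.7 and 40.5 CPM at 20 µM, against 29.7, 85.9 and 167 CPM in untreated larvae. As with gnat1, all 40 exposed larvae were below the untreated larvae of their strain. grk7a was at 17.4% of its untreated level (log2 fold change −2.52, SE 0.15, edgeR adjusted p = 1.09e-36), and 0.574% of all genes tested had a lower fold change.

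The arrestins and recoverin fell too, with less negative fold changes. arr3b had 18.2, 85.1 and 219 CPM at 20 µM valproic acid, against 97.2, 272 and 562 CPM in untreated larvae. The ranges overlapped, with 24 of 40 exposed larvae below every untreated one (33.8% of untreated, log2 fold change −1.57, SE 0.14, edgeR adjusted p = 3.23e-21). arr3a had 13.1, 119 and 323 CPM at 20 µM, against 124, 311 and 569 CPM in untreated larvae. Here 21 of 40 exposed larvae were below every untreated one (46.5% of untreated, log2 fold change −1.10, SE 0.12, edgeR adjusted p = 6.89e-16). rcvrn3 had 16.3, 98.2 and 258 CPM at 20 µM, against 111, 229 and 389 CPM in untreated larvae, with 29 of 40 exposed larvae below every untreated one (43.0% of untreated, log2 fold change −1.22, SE 0.11, edgeR adjusted p = 7.56e-20). No gene of the set had every exposed larva below every untreated larva, which held for 0.0475% of all genes tested. cnga3a, the alpha subunit of the cone cyclic GMP-gated channel, was near its counting floor, with a median of 6 counts per larva in both groups and 1.76 CPM at 20 µM, against 2.51 CPM in untreated larvae. Its log2 fold change was −0.32 (SE 0.32, edgeR adjusted p = 0.5625), and a difference was not detectable at this depth.

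**Figure D1:**
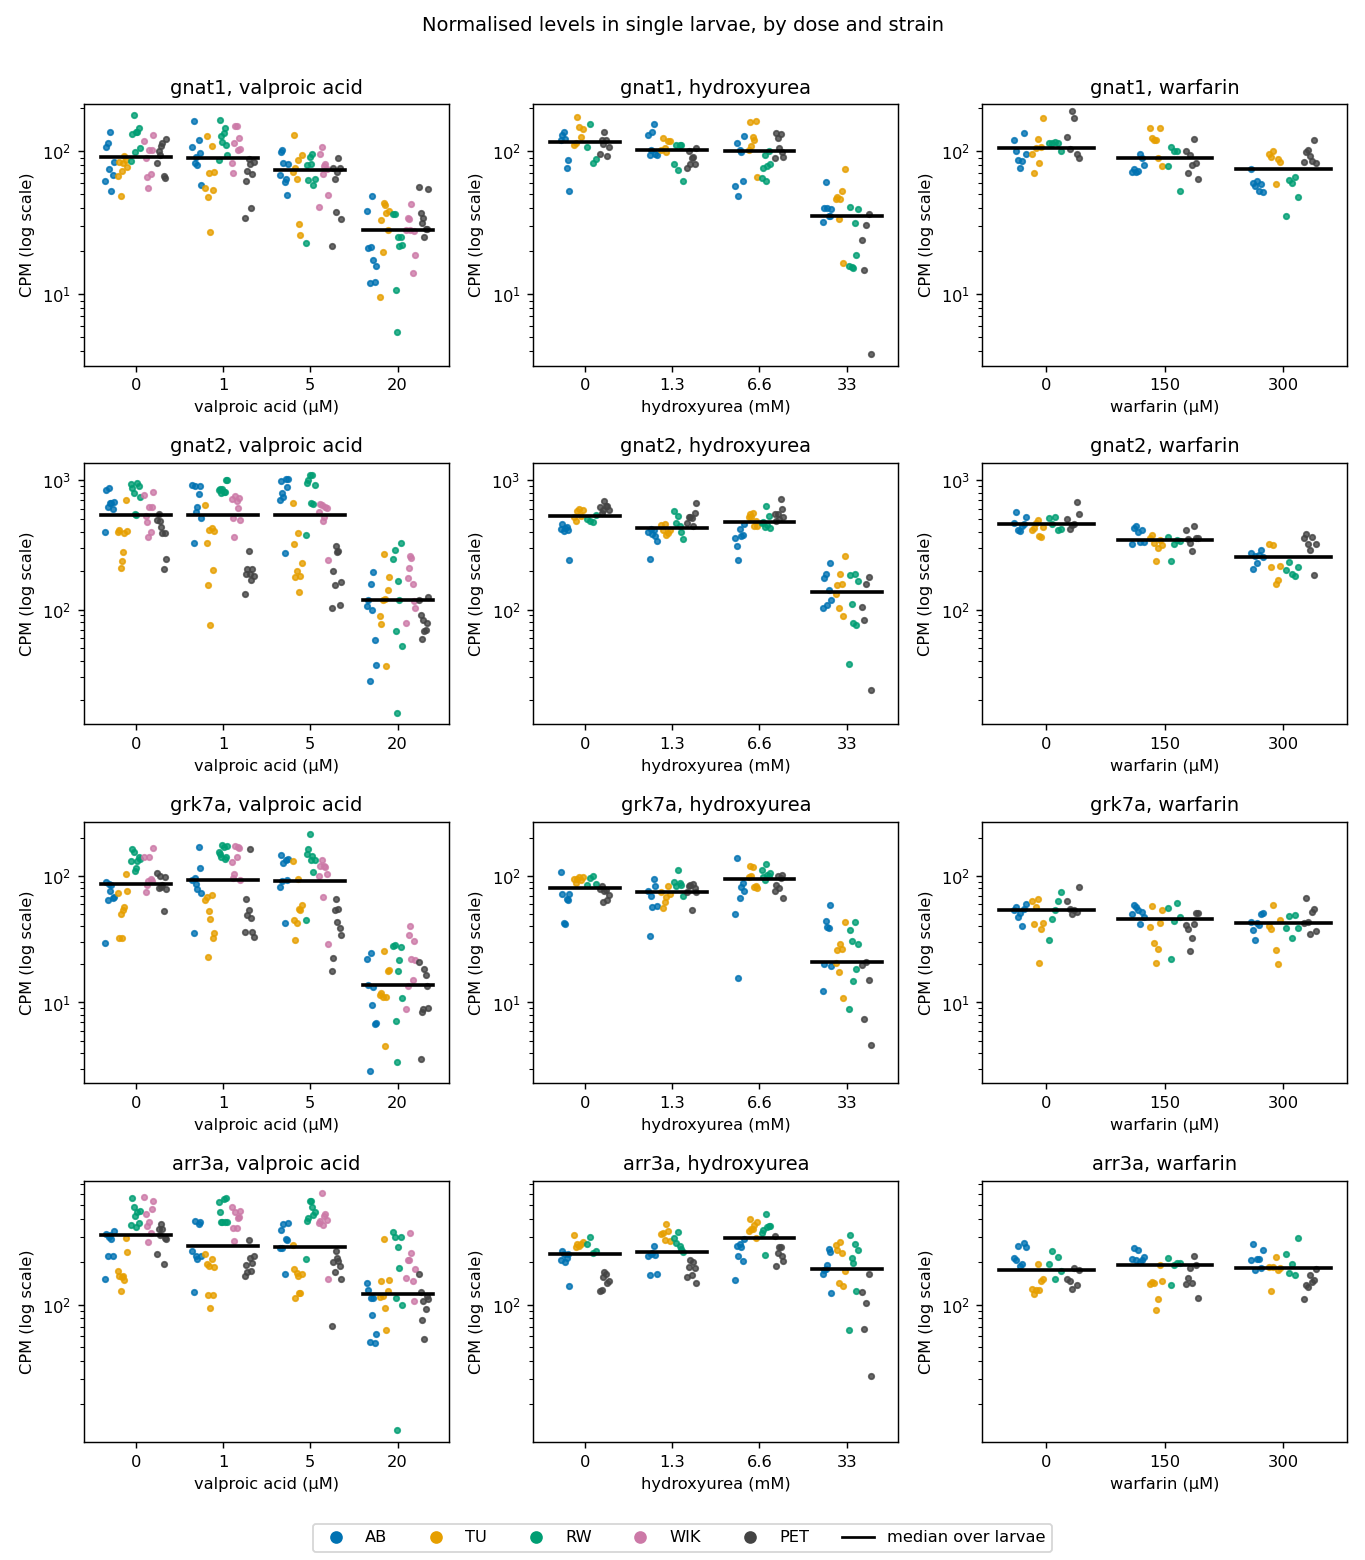
Levels of gnat1, gnat2, grk7a and arr3a in single larvae (CPM, log axis) by dose and strain for valproic acid (µM), hydroxyurea (mM) and warfarin (µM), with 1 point per larva and a line at the median over larvae. At 20 µM valproic acid gnat2 had a median of 118 CPM, against 541 CPM in untreated larvae, while arr3a had medians of 177 CPM at 33 mM hydroxyurea and 225.5 CPM in untreated larvae, with ranges that overlapped.

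The lower doses of valproic acid left the set close to the untreated level when strains were pooled. At 1 µM none of the 8 genes was called by edgeR, with 0 at an unadjusted p under 0.05 and 0 by DESeq2, and log2 fold changes lay between −0.24 (arr3b) and 0.02 (grk7a), while 0% of all genes tested were called lower and 0.00475% higher. At 5 µM the rod gene gnat1 was the only one called, among 1.80% of genes that fell. Its larvae had 21.6, 73.5 and 131 CPM at 5 µM, against 48.7, 91.1 and 179 CPM in untreated larvae, and 7 of 40 lay below every untreated larva (log2 fold change −0.43, SE 0.12, edgeR adjusted p = 0.03616). This call was lost in 6 alternative fits, among them the fit with log10 total count as a covariate (adjusted p = 0.06876) and those without RW (0.2329), without WIK (0.08595) and without PET (0.4089).

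Within strains, the calls at the lower doses lay in PET. There, gnat2, arr3b and rcvrn3 fell at 1 µM, among 7.20% of genes that fell, and gnat2, arr3a, arr3b, grk7a and rcvrn3 fell at 5 µM, among 6.44%. Within AB, TU, RW and WIK, 0 of 64 combinations of gene, strain and lower dose were called by edgeR, with 4 at an unadjusted p under 0.05 (DESeq2 was not run within strains), and the share of all genes tested that fell was 0% in TU and WIK and 0.00475% in AB and RW at 1 µM, and 0.00475% in AB, 0.133% in TU, 0.0332% in RW and 0.0427% in WIK at 5 µM. The 8 PET larvae at 1 µM had 82.3, 160 and 275 CPM of arr3b, those at 5 µM had 94.7, 117 and 206 CPM, and untreated PET larvae had 202, 365 and 562 CPM. At each of the lower doses 7 of 8 PET larvae were below all untreated PET larvae. The log2 fold change of arr3b was −1.26 (SE 0.27) at 1 µM and −1.53 (SE 0.27) at 5 µM, with edgeR adjusted p of 0.0005095 and 1.46e-05. Depth differed in the same direction: the PET groups had median totals of 960618.5 at 1 µM, 727935.5 at 5 µM and 1557113 in untreated larvae, and 6 of 8 larvae at each of the lower doses were under 0.5 times the experiment's median, and its part in these calls was not tested beyond the next alternative. Without the larvae of low depth, which left 2 PET larvae at 1 µM, the calls there were lost, with log2 fold changes of −1.13 for gnat2 (adjusted p = 0.1987), −1.21 for arr3b (0.09248) and −1.20 for rcvrn3 (0.07061). The arr3a call at 5 µM was lost with the size factors of DESeq2 (0.08397) and with no filter on low counts (0.06121).

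At 20 µM the fall was seen in every strain. Within strains, 33 of 40 combinations of gene and strain were called lower, where 4.48% of all genes tested fell in AB, 3.2% in TU, 4.41% in RW, 6.47% in WIK and 5.51% in PET, and 39 of the 40 log2 fold changes were negative. The 7 combinations not called were cnga3a in all 5 strains, and arr3a and rcvrn3 in TU. Leaving out the larvae of low depth left 1 PET larva at 20 µM, taken to vary like the other groups, and 6 of the 7 PET calls were then lost, with log2 fold changes between −2.68 (grk7a) and −1.39 (arr3a). The median log2 fold change over the 7 genes other than cnga3a was −1.90 in AB, −1.31 in TU, −2.20 in RW, −1.36 in WIK and −2.04 in PET. gnat1, gnat2, pde6c, arr3b and grk7a fell in all 5 strains, which 1.25% of all genes tested did. grk7a ranged from −2.90 (RW) to −2.04 (TU), and arr3a from −1.52 (AB) to −0.39 (TU). In TU, the arr3a ranges overlapped, with 66.1, 119 and 288 CPM at 20 µM, against 124, 158 and 294 CPM in untreated TU larvae.

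The effect of valproic acid depended on strain for 6 of the 8 genes by the interaction test over all doses (gnat1, gnat2, arr3a, arr3b, grk7a and rcvrn3, edgeR adjusted p between 0.0001764 and 0.03812), and 13.1% of all genes tested passed this test. pde6c (adjusted p = 0.1277) and cnga3a (0.1261) did not pass. With log10 total count as a covariate the number was 3: gnat1 (0.0322), gnat2 (0.04821) and arr3b (0.002924) passed, while arr3a (0.3084), grk7a (0.0606) and rcvrn3 (0.05137) did not.

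**Figure D2:**
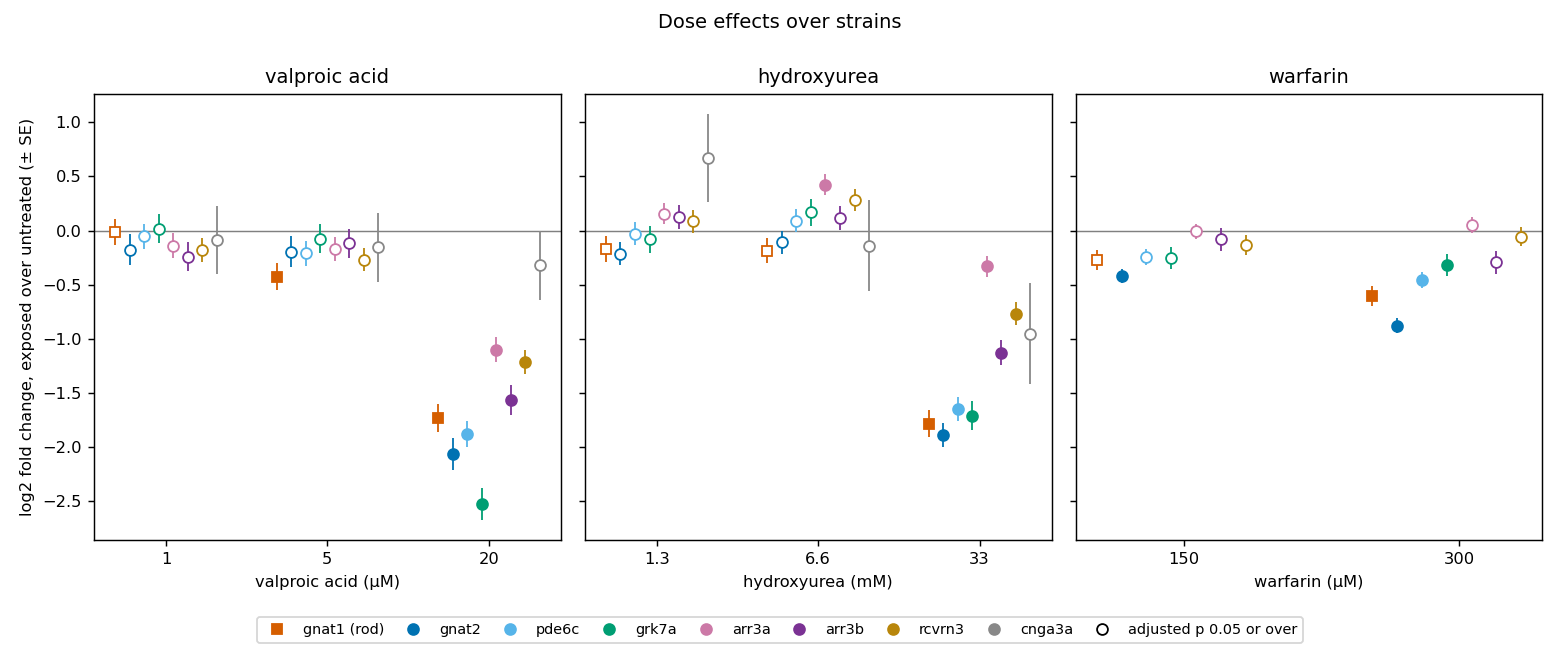
Log2 fold change against untreated larvae (edgeR, bars show ± 1 SE) of each gene by dose of valproic acid, hydroxyurea and warfarin, over strains. Filled points are called at an adjusted p under 0.05, open points are not, and the square marks the rod gene gnat1. At the highest dose grk7a stood at −2.52 with valproic acid, gnat2 at −1.89 with hydroxyurea and gnat2 at −0.88 with warfarin, while arr3a stood at −1.10, −0.33 and 0.05 for the 3 compounds in that order.

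At 33 mM hydroxyurea the same 7 genes fell as at 20 µM valproic acid, while 11.4% of the 17236 genes tested fell and 8.75% rose. This split of all called genes depends on the scaling: 1508 genes were higher and 1963 lower with TMM, against 1984 higher and 1666 lower with the size factors of DESeq2. gnat2 had the lowest fold change. Its 26 larvae at 33 mM had 23.8, 137 and 257 CPM, against 243, 524 and 688 CPM in 24 untreated larvae. All but 1 of the exposed larvae were below every untreated larva (27.0% of untreated, log2 fold change −1.89, SE 0.11, edgeR adjusted p = 5.44e-30). gnat1 had 3.84, 35.1 and 75.7 CPM at 33 mM, against 52.93, 116 and 175 CPM in untreated larvae, and 24 of 26 exposed larvae were below every untreated one (29.0% of untreated, log2 fold change −1.79, SE 0.13, edgeR adjusted p = 5.89e-25).

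pde6c had 4.604, 45.8 and 92.7 CPM at 33 mM hydroxyurea, against 88.7, 148 and 184 CPM in untreated larvae, with 25 of 26 exposed larvae below every untreated one (31.9% of untreated, log2 fold change −1.65, SE 0.11, edgeR adjusted p = 2.01e-26). The opsin kinase gene grk7a had 4.604, 20.7 and 59.4 CPM at 33 mM, against 41.4, 80.9 and 108 CPM in untreated larvae, with 22 of 26 below (30.6% of untreated, log2 fold change −1.71, SE 0.13, edgeR adjusted p = 1.42e-21). Both ranges therefore overlapped only at their edges. No gene of the set had every exposed larva below every untreated one, against 0.244% of all genes tested.

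The 2 cone arrestins parted in the hydroxyurea experiment. arr3b had 15.2, 55.9 and 118 CPM at 33 mM, against 70.4, 121 and 156 CPM in untreated larvae, and all 26 exposed larvae were below every untreated larva of their strain (45.7% of untreated, log2 fold change −1.13, SE 0.12, edgeR adjusted p = 7.11e-15). arr3a had 31.5, 177 and 309.6 CPM at 33 mM, against 125, 225.5 and 307.5 CPM in untreated larvae. Its ranges largely overlapped, with 7 of 26 exposed larvae below every untreated larva and 1 above them all. It was at 79.6% of untreated (log2 fold change −0.33, SE 0.10, edgeR adjusted p = 0.007534), and this call was lost without TU (0.07734), without PET (0.05301) and with log10 total count as a covariate (0.05612). At 6.6 mM arr3a was the only gene of the set called, and it rose, among 0.534% of genes that rose, while 0.487% fell. It had 148, 292 and 435 CPM at 6.6 mM, and 23 of 28 larvae were above every untreated larva of their strain (134% of untreated, log2 fold change 0.42, SE 0.10, edgeR adjusted p = 0.005342). Without TU the adjusted p of this rise was 0.05931 and without PET 0.199. At 1.3 mM none of the 8 was called, with 0 at an unadjusted p under 0.05 and 0 by DESeq2, where 0% of all genes tested were lower and 0.00580% higher.

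rcvrn3 had 19.95, 71.6 and 119 CPM at 33 mM hydroxyurea, against 77.3, 123 and 215 CPM in untreated larvae, with 15 of 26 exposed larvae below every untreated one (58.6% of untreated, log2 fold change −0.77, SE 0.11, edgeR adjusted p = 1.54e-09). cnga3a had no count in 16 of 26 larvae at 33 mM, against 5 of 24 untreated larvae, and its log2 fold change of −0.95 (SE 0.46) was not called (edgeR adjusted p = 0.1474).

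Within strains, 24 of 32 combinations were called lower at 33 mM hydroxyurea, where 4.75% of all genes tested fell in AB, 3.85% in TU, 3.93% in RW and 5.76% in PET, and 31 of 32 fold changes were negative. gnat1, gnat2, pde6c, arr3b and grk7a fell in all 4 strains, which 1.30% of all genes tested did. In AB, the grk7a call was lost in a fit of AB larvae alone (adjusted p = 0.05754) and without replicate 1 (0.1099), and the arr3b call without replicate 2 (0.06877). The median log2 fold change over 7 genes was −0.97 in AB, −1.46 in TU, −1.78 in RW and −2.14 in PET. arr3a was called in PET only (−0.60, edgeR adjusted p = 0.03581, and between 0.09842 and 0.4266 without replicate 2, 3 or 5) and rcvrn3 in every strain but AB. The interaction of strain and dose passed for rcvrn3 alone (adjusted p = 0.03114), among 2.82% of all genes tested, and did not pass with log10 total count as a covariate (0.09489). At 6.6 mM PET larvae had more arr3a and rcvrn3 than untreated PET larvae, among 0.580% of genes that rose there. rcvrn3 had 124, 142 and 261 CPM in 7 PET larvae at 6.6 mM, against 88.7, 102 and 116 CPM in 7 untreated PET larvae (log2 fold change 0.64, SE 0.17, edgeR adjusted p = 0.04807, and 0.05648 with the size factors of DESeq2). In the same groups arr3a had 187, 229 and 304 CPM, against 125, 146 and 169 CPM (0.68, SE 0.17, 0.02673). Untreated PET larvae of this experiment were themselves lower in both genes than the mean of the other strains, among 1.78% of genes. The log2 differences were −0.75 for arr3a and −0.44 for rcvrn3.

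At 300 µM warfarin 4 of the 7 genes tested fell, while 4.38% of the 14826 genes tested fell. These were gnat1, gnat2, pde6c and grk7a, while arr3a, arr3b and rcvrn3 were not called and cnga3a did not pass the filter on low counts. The cone transducin gnat2 moved most. It had 157, 253 and 382 CPM in 25 larvae at 300 µM, against 362, 456 and 679.5 CPM in 25 untreated larvae. At 300 µM 23 of 25 larvae were below every untreated larva, and all 25 were below those of their strain (54.4% of untreated, log2 fold change −0.88, SE 0.07, edgeR adjusted p = 1.14e-18). gnat2 was also the only gene of the set called at 150 µM, among 1.26% of genes that fell, with 238, 346 and 442.5 CPM in 26 larvae (74.7% of untreated, log2 fold change −0.42, SE 0.07, edgeR adjusted p = 5.55e-06), so its 3 dose groups were stepped. Of the other genes, gnat1 (−0.28, adjusted p = 0.09208) and pde6c (−0.24, 0.05205) were not called at 150 µM, where 4 of the 7 genes had an unadjusted p under 0.05 and DESeq2 called 3. gnat1 passed without the larvae of low depth (0.02721) and without TU (0.009272), and pde6c with the size factors of DESeq2 (0.03301) and with log10 total count as a covariate (0.04047).

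gnat1 had 35.1, 75.1 and 121 CPM at 300 µM warfarin, against 70.4, 105 and 191 CPM in untreated larvae, with 12 of 25 exposed larvae below every untreated one (65.7% of untreated, log2 fold change −0.61, SE 0.09, edgeR adjusted p = 3.39e-07). pde6c had 56.9, 101 and 138 CPM at 300 µM, against 89.8, 136 and 185 CPM in untreated larvae, with 9 of 25 below (73.0%, log2 fold change −0.45, SE 0.07, edgeR adjusted p = 1.94e-06). Both overlapped the untreated range more than gnat2 did. grk7a, the gene that fell furthest with valproic acid, had 20.0, 42.6 and 66.9 CPM at 300 µM, against 20.6, 53.9 and 81.5 CPM in untreated larvae, and 1 of 25 exposed larvae was below the untreated range (80.3%, log2 fold change −0.32, SE 0.10, edgeR adjusted p = 0.03714). The grk7a call was lost in 5 alternatives, among them those without AB (0.1844), without RW (0.09651) and without PET (0.1028).

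The arrestins and recoverin were not called over strains at 300 µM warfarin, while the opsin kinase gene grk7a was. arr3a had 109, 180.3 and 293 CPM at 300 µM and 119, 176 and 270.3 CPM in untreated larvae (log2 fold change 0.05, SE 0.07, edgeR adjusted p = 0.7909). rcvrn3 had 48.1, 85.4 and 125 CPM at 300 µM and 37.2, 87.9 and 141 CPM in untreated larvae (−0.06, SE 0.09, 0.8282). arr3b had 38.5, 73.0 and 123 CPM at 300 µM and 43.4, 89.96 and 217 CPM in untreated larvae (−0.29, SE 0.11, 0.07721), and it passed without TU (0.003752), without the larvae of low depth (0.03519) and with log10 total count as a covariate (0.03924). cnga3a had no count in 9 of 25 larvae at 300 µM and in 15 of 25 untreated larvae. Within strains, 8 of 28 combinations were called lower, where 1.60% of all genes tested fell in AB, 1.81% in TU, 1.22% in RW and 0.465% in PET. gnat2 fell in all 4 strains, which 0.263% of all genes tested did, with log2 fold changes from −1.18 in RW to −0.68 in PET. gnat1 fell in AB (−0.74) and RW (−1.04), pde6c in AB (−0.52) and arr3b in PET (−0.78). The pde6c call was lost without replicate 2 or 5 (adjusted p = 0.2401 and 0.05922), the arr3b call without replicate 1, 2 or 5 (0.1128 to 0.1334), and the gnat2 call in TU without the larvae of low depth (0.05646). The interaction test passed for none of the 7 genes, with 2 at an unadjusted p under 0.05 (gnat1 and arr3b) and 0.546% of all genes tested passing.

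**Figure D3:**
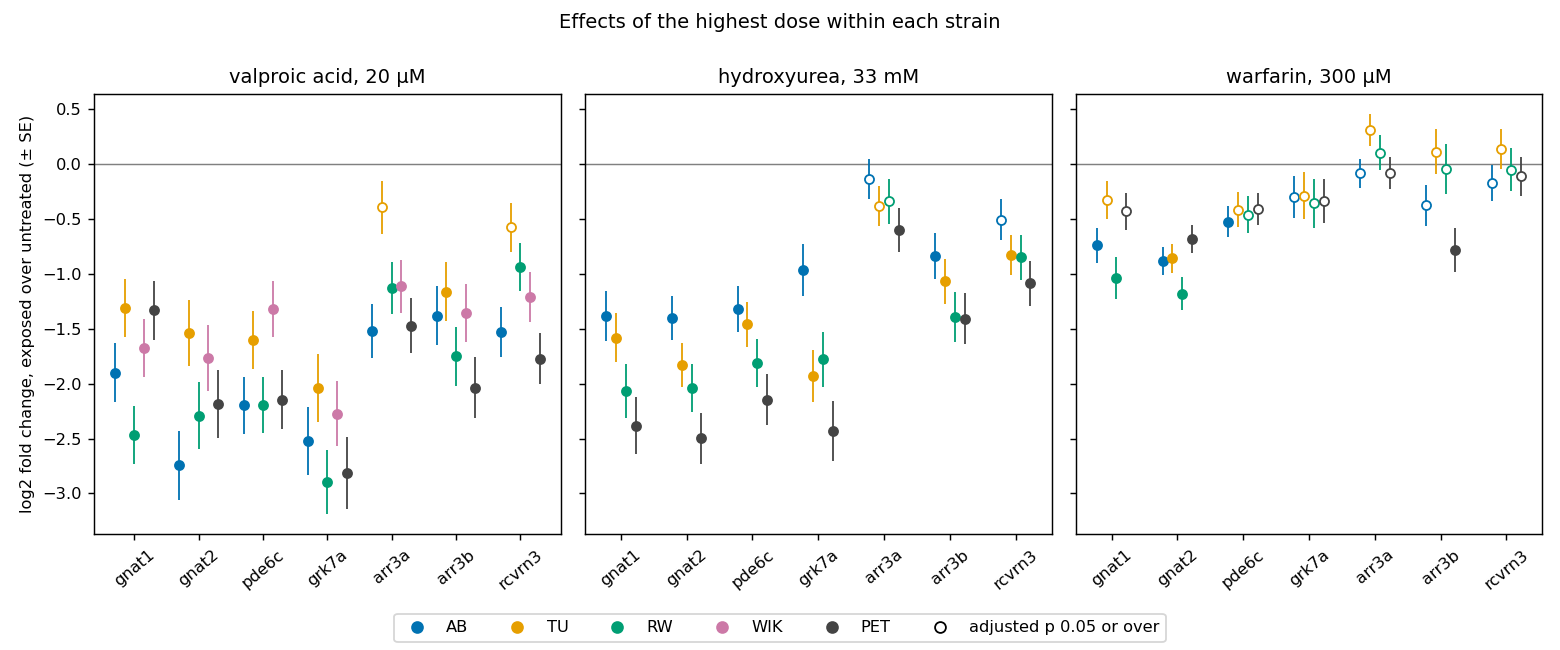
Log2 fold change within each strain (edgeR, bars show ± 1 SE) at 20 µM valproic acid, 33 mM hydroxyurea and 300 µM warfarin for the 7 genes other than cnga3a. Filled points are called at an adjusted p under 0.05 and open points are not. Of these 7 genes, the medians were lowest in RW with valproic acid (−2.20), and in PET with hydroxyurea (−2.14) and warfarin (−0.41).

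Within single larvae, the balance of gene pairs can be read without library scaling, as the log2 ratio of 2 counts. These ratios were added after the data had been seen, and their 16 tests permuted dose within strain 100000 times, two-sided. arr3b relative to arr3a was lower at the highest dose of all 3 compounds. The log2 ratio averaged −1.71 ± 0.44 at 33 mM hydroxyurea, −1.21 ± 0.36 at 6.6 mM and −0.87 ± 0.24 in untreated larvae (SD, n = 26, 28 and 24). The differences within strains were −0.82 at 33 mM (permutation p = 1e-05, the smallest these permutations can give, adjusted p = 0.00016) and −0.34 at 6.6 mM (permutation p = 0.00014, adjusted p = 0.0007467), and both were negative in 4 of 4 strains. With valproic acid the ratio averaged −0.60 ± 0.52 at 20 µM and −0.17 ± 0.44 in untreated larvae (SD, n = 40 each), a difference of −0.43 that was negative in 4 of 5 strains (permutation p = 7e-05, adjusted p = 0.00056). At 300 µM warfarin it averaged −1.33 ± 0.493, against −0.995 ± 0.496 in untreated larvae (SD, n = 25 each), a difference of −0.33 that was negative in 4 of 4 strains (permutation p = 0.0184, adjusted p = 0.04912), and without PET it was −0.22 (p = 0.204).

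The rod to cone transducin ratio, gnat1 over gnat2, was higher at the highest dose of valproic acid and of warfarin. It averaged −2.04 ± 0.86 at 20 µM valproic acid, against −2.50 ± 0.53 in untreated larvae (SD, n = 40 each). The difference was 0.46, positive in 5 of 5 strains (permutation p = 0.00164, adjusted p = 0.00656). In the fits within strains, RW was an exception, with log2 fold changes of −2.47 for gnat1 and −2.29 for gnat2. At 300 µM warfarin the ratio averaged −1.78 ± 0.44, against −2.09 ± 0.39 in untreated larvae (SD, n = 25 each), a difference of 0.30 that was positive in 4 of 4 strains (permutation p = 0.00822, adjusted p = 0.0263), and without TU it was 0.19 (p = 0.143). With 33 mM hydroxyurea the difference was 0.13, positive in 4 of 4 strains, and did not pass (permutation p = 0.187, adjusted p = 0.3128). Of the 8 comparisons at the lower doses, arr3b over arr3a at 6.6 mM hydroxyurea was the only one to pass after adjustment.

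**Figure D4:**
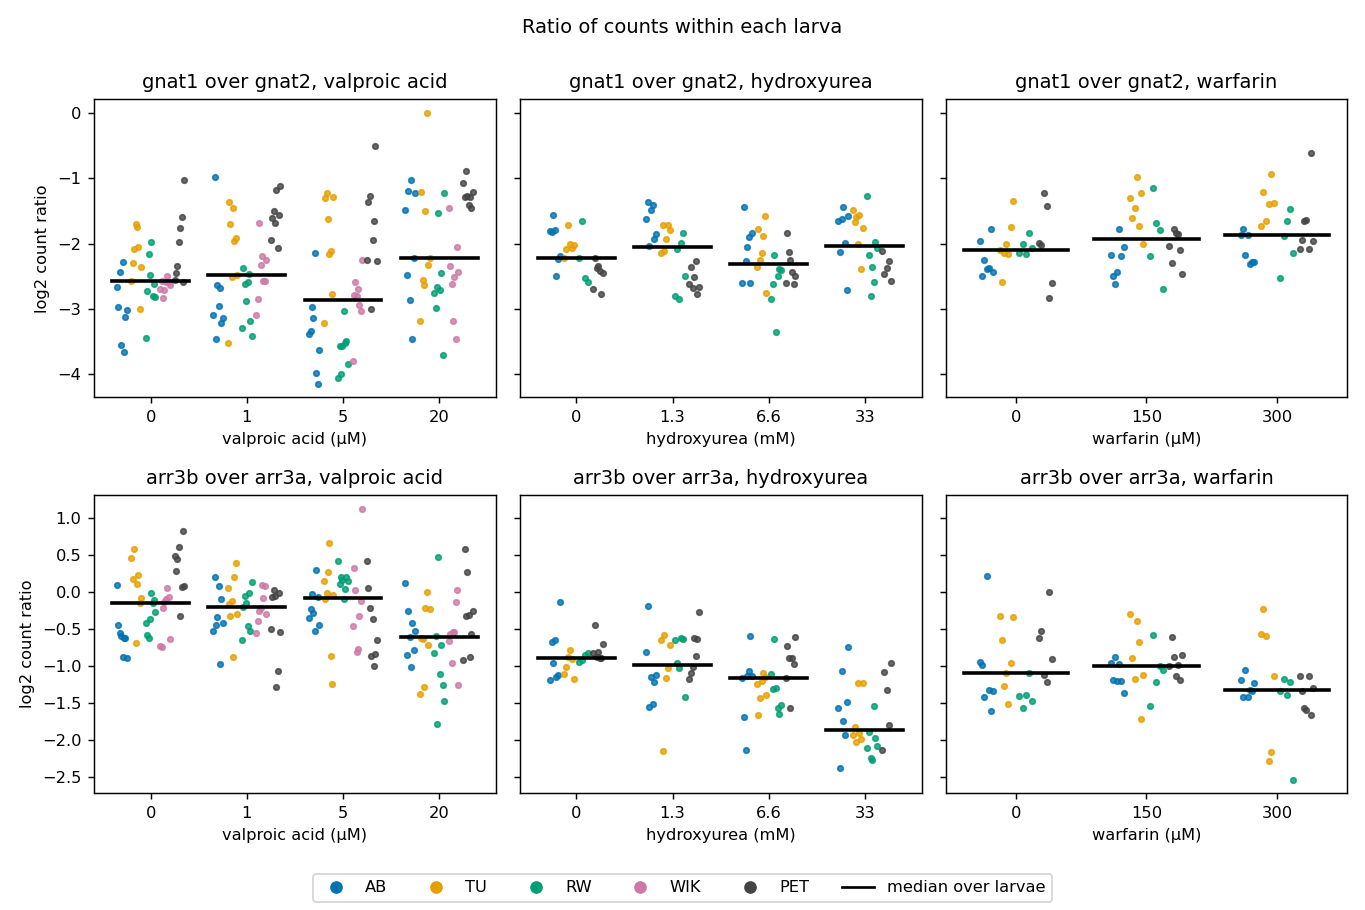
Log2 ratio of counts within each larva for gnat1 over gnat2 and arr3b over arr3a (pseudocount 0.5), by dose of each compound, with 1 point per larva and a line at the median over larvae. The median of arr3b over arr3a was −1.86 at 33 mM hydroxyurea, against −0.89 in untreated larvae, and that of gnat1 over gnat2 was −2.22 at 20 µM valproic acid, against −2.57 in untreated larvae.

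Untreated strains differed in the set as well, each strain being compared with the mean of the others in its experiment. In the valproic acid experiment 18 of the 40 combinations were called. RW was higher in 6 genes (log2 differences between 0.41 for arr3b and 0.74 for grk7a, among 11.7% of genes that were higher in RW). TU was lower in 6 genes (between −0.88 for arr3a and −0.57 for arr3b, among 9.55%). WIK was higher in arr3a, arr3b and rcvrn3 (among 10.7%), AB was lower in arr3b (−0.79, among 0.909%), and PET was higher in arr3b (0.59, among 13.5%) and lower in gnat2 (−0.54, among 13.1%). Untreated RW larvae had a median total of 4535022.5, WIK 4075198.5, AB 2582194, TU 1582654.5 and PET 1557113, so the 2 deepest strains had the higher values and TU the lower ones, while PET, the shallowest, was higher in arr3b and lower in gnat2. With log10 total count as a covariate 3 of the 18 remained, which were arr3b in AB (−0.82), arr3b in PET (0.77) and rcvrn3 in TU (−0.70). In the hydroxyurea experiment 6 combinations were called: gnat2 was lower in AB (−0.42, among 5.19%) and higher in PET (0.34, among 1.60%), arr3a was higher in TU (0.43, among 2.06%), and arr3a (−0.75), arr3b (−0.63) and rcvrn3 (−0.44) were lower in PET (among 1.78%). In the warfarin experiment arr3a was higher in AB (0.47, among 0.697%) and lower in TU (−0.37, among 2.38%). The arr3a calls in TU were lost in all 3 experiments with log10 total count as a covariate (adjusted p = 0.06074 with valproic acid, 0.3944 in the hydroxyurea experiment and 0.2873 in the warfarin one), as were the gnat2 calls of the hydroxyurea experiment (0.364 in AB and 0.08771 in PET), and rcvrn3 in PET was lost with no filter on low counts (0.05244). The warfarin call of arr3a in TU was also lost with the size factors of DESeq2 (0.05599) and without the larvae of low depth (0.2666). arr3b in untreated PET was higher than the other strains in the valproic acid experiment and lower in the hydroxyurea experiment, and both calls passed with the covariate.

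Other subunits of the cascade were tested beside the set. Over all genes tested, 10.0% fell and 7.19% rose at 20 µM valproic acid. The share that fell was 11.4% at 33 mM hydroxyurea and 4.38% at 300 µM warfarin. Of 46 further symbols listed for the cascade, 40 were tested with valproic acid, and 20 fell and 2 rose at 20 µM (median log2 fold change −0.51, against −1.65 for the 8 genes of the set and 0.09 for all genes tested). These symbols include both pde6h and pde6ha, names of the same gene, and the rod opsin rho, which is counted again among the opsins below. With 33 mM hydroxyurea 25 of 35 fell (median −1.12, against −1.39 for the set and 0.02 for all genes), and with 300 µM warfarin 9 of 32 fell (median −0.27, against −0.32 and 0.01). The all-gene median at 20 µM valproic acid was 0.12 with the size factors of DESeq2, and these further genes were not refitted under that scaling.

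pde6ha, the inhibitory gamma subunit that partners pde6c, had a lower fold change at 20 µM valproic acid than any of the 8 genes. It had 34.3, 100.2 and 401 CPM at 20 µM, against 328, 924 and 1613 CPM in untreated larvae, and 38 of 40 exposed larvae were below every untreated larva (14.6% of untreated, log2 fold change −2.78, SE 0.14, edgeR adjusted p = 4.03e-44). It fell with 33 mM hydroxyurea (−1.18, SE 0.14) and 300 µM warfarin (−0.57, SE 0.09) too, and at 5 µM valproic acid (−0.52, SE 0.13, edgeR adjusted p = 0.01049). Within AB it was not called at 33 mM hydroxyurea (−0.26, adjusted p = 0.6254) and rose at 6.6 mM (1.17, SE 0.26, edgeR adjusted p = 0.008483). Untreated levels of pde6ha spread widely between strains in the hydroxyurea experiment, with 125 to 211 CPM in AB and 766 to 1302 CPM in TU. In the valproic acid experiment these ranges overlapped, with 328 to 748 CPM in AB and 366 to 953 CPM in TU. The log2 difference of untreated TU from the mean of the other strains was 1.78 in the hydroxyurea experiment. It was 0.77 in the warfarin experiment and −0.50 in the valproic acid one. The rod phosphodiesterase subunits pde6a and pde6b fell by 1.28 and 0.59 on the log2 scale at 20 µM valproic acid and by 1.50 and 1.16 at 33 mM hydroxyurea, and were not called with 300 µM warfarin (−0.41 and −0.45, edgeR adjusted p = 0.1937 and 0.2466).

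Copies of the same subunit did not always move alike. The rod arrestin sagb fell by 1.40 on the log2 scale at 20 µM valproic acid (SE 0.13), while saga was at −0.01 (SE 0.10, edgeR adjusted p = 0.981). At 33 mM hydroxyurea sagb fell by 1.25 and saga fell by 0.46, and at 300 µM warfarin sagb fell by 0.32 and saga was not called (−0.10). The opsin kinase grk1b fell by 2.32, 1.69 and 0.87 on the log2 scale with the 3 compounds in that order, while grk1a was not called with any of them (0.01, −0.14 and 0.07). The difference between copies was not itself tested. Among the transducin subunits, the cone gamma gene gngt2b fell by 1.34 on the log2 scale at 20 µM valproic acid and gngt2a was at −0.09 (not called). The beta gene gnb3b fell by 1.30 while gnb3a rose by 0.95 (SE 0.16, edgeR adjusted p = 3.45e-07), and with 33 mM hydroxyurea gnb3a fell by 1.01. rcvrn2 fell by 1.02 at 20 µM valproic acid and by 0.96 at 33 mM hydroxyurea, and was not called with 300 µM warfarin (−0.15). The second kinase grk7b fell at 33 mM hydroxyurea, with a mean of 1.29 CPM, against 3.35 CPM in untreated larvae (−1.51, SE 0.37), and was not called with valproic acid or warfarin. Reads shared between such copies could be split by the counting step, which the sources used here do not describe.

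The opsins upstream of the cascade fell with it. Of 8 visual opsin genes tested, 6 fell at the highest dose of each compound (median log2 fold changes −1.18, −1.67 and −0.63 in the order of compounds above). Over all genes tested, 10.0%, 11.4% and 4.38% fell at these doses. opn1lw2, a red cone opsin, fell by 0.84, 1.24 and 0.50 on the log2 scale in the order valproic acid, hydroxyurea, warfarin. opn1sw1, the ultraviolet cone opsin, fell by 1.52, 2.42 and 0.84, and the rod opsin rho by 2.17, 1.91 and 0.52. The green cone opsin opn1mw1 fell by 2.28, 2.25 and 0.78, so with valproic acid its fold change was below that of opn1sw1. Differences between opsins were not tested. Among photoreceptor transcription factors, 3 of 8 rose at 20 µM valproic acid, where 7.19% of all genes tested rose (nr2e3, tbx2b and prdm1a, with log2 fold changes of 0.82, 0.95 and 0.67), 3 of 8 fell at 33 mM hydroxyurea, and the median at 300 µM warfarin was 0.07. Counts were low for nr2e3, tbx2b and prdm1a, with 4403, 3946 and 5245 over all larvae, against 122469 for neurod1. Any expression of these genes outside photoreceptors is included. neurod1, the transcription factor of the list with the most counts, was at 0.29, −0.59 and −0.20 for the 3 compounds, of which the hydroxyurea value was called. Outer segment genes fell in part (4 of 11, 6 of 8 and 2 of 7), among them prph2a, a disc rim protein, by 1.61, 1.54 and 0.62 on the log2 scale.

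**Figure D5:**
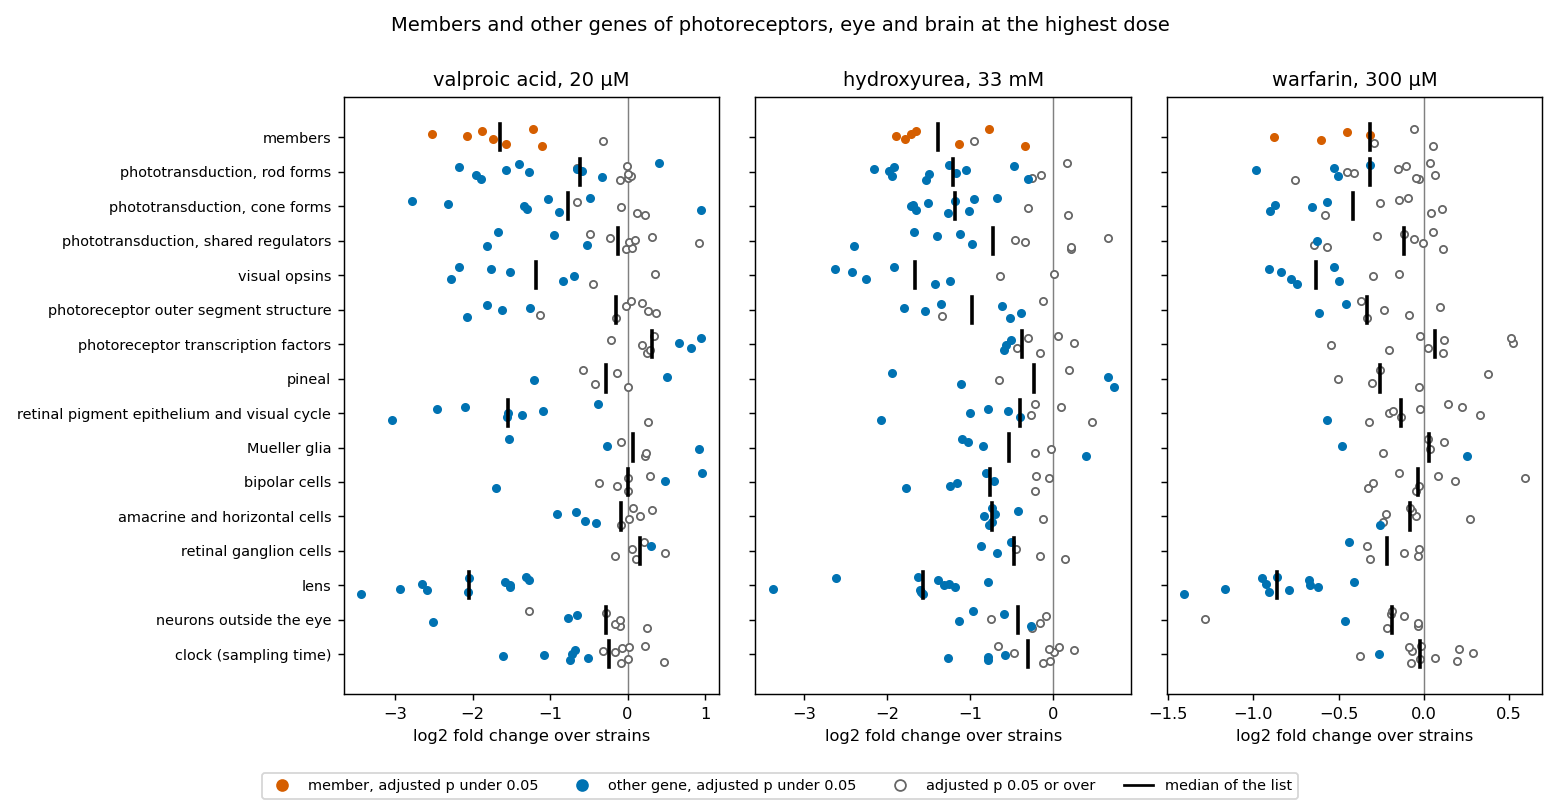
Log2 fold changes at the highest dose of each compound for the members (orange), the rest of the phototransduction lists, and the lists of opsins, outer segment genes, transcription factors and marker genes of other cells (blue where called, open where not), with a black bar at each list's median. The lens list had medians of −2.05, −1.56 and −0.86 for valproic acid, hydroxyurea and warfarin, against −1.65, −1.39 and −0.32 for the members.

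Lens genes and a list of pigment epithelium and visual cycle genes moved with the set in part. The pigment epithelium and visual cycle list had median log2 fold changes of −1.55, −0.39 and −0.13 for valproic acid, hydroxyurea and warfarin at the highest doses. Over all genes tested, 10.0%, 11.4% and 4.38% fell at these doses. All 11 lens genes fell at the highest dose of each compound, with a summed level of 463, 822 and 2397 CPM at 20 µM valproic acid, against 1174, 4213 and 6393 CPM in untreated larvae. At 33 mM hydroxyurea the lens sum was 734, 1917 and 3711 CPM, against 4497, 5829 and 6686 CPM, without overlap, and at 300 µM warfarin it was 1509, 3748 and 5227 CPM, against 2829, 6004 and 7484 CPM. The crystallin gene with the most counts, cryba4, fell by 2.59, 1.61 and 0.79 on the log2 scale with valproic acid, hydroxyurea and warfarin. Of 9 genes of the pigment epithelium and visual cycle 8 fell at 20 µM valproic acid, 5 at 33 mM hydroxyurea and 1 at 300 µM warfarin, and the sum was 104, 176 and 330.3 CPM at 20 µM valproic acid, against 236, 614 and 952 CPM in untreated larvae. The genes of this list with the most counts over all larvae were rbp4l (234541) and rbp3 (99641), against 33723 for rpe65a. Over the group means, rbp3 ranked 16th in likeness to the cone forms of the set (r = 0.923). This sum is therefore not read as a measure of a tissue other than photoreceptors. rpe65a, the visual cycle isomerase that defines pigment epithelium, fell by 2.1 on the log2 scale with valproic acid and was not called with hydroxyurea (0.10) or warfarin (0.22). rbp3, the retinoid carrier between photoreceptors and pigment epithelium, fell with all 3 compounds (by 3.04, 2.08 and 0.57 on the log2 scale).

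Genes listed as inner retinal markers were called in both directions at 20 µM valproic acid. Their levels are those of whole larvae, so any expression outside the retina is included. Of bipolar genes 2 of 8 rose and 1 fell (median 0.01), and of amacrine and horizontal cell genes 4 of 9 fell (median −0.08). Of ganglion cell genes 1 of 6 rose (median 0.16), and of Mueller glia genes 2 of 6 fell and 1 rose (median 0.07). Over all genes tested, 10.0% fell and 7.19% rose at this dose. The shares were 11.4% and 8.75% at 33 mM hydroxyurea, and 4.38% fell at 300 µM warfarin. In lists this short, 1 called gene is not read as a change of the list. vsx1, a bipolar cell transcription factor, rose by 0.96 on the log2 scale (SE 0.11). gad1b of the amacrine and horizontal list, whose product makes the transmitter GABA, fell by 0.41 (SE 0.07). At 33 mM hydroxyurea 5 of 8 bipolar genes, 6 of 7 amacrine and horizontal cell genes, 3 of 6 ganglion cell genes and 3 of 6 Mueller glia genes fell (vsx1 −0.81), and 1 Mueller glia gene rose. At 300 µM warfarin the medians of these lists lay between −0.22 (ganglion cells) and 0.03 (Mueller glia), and 1 gene each of the amacrine and horizontal, ganglion and Mueller lists fell. At the same dose 1 Mueller glia gene rose, while 629 of the 14826 genes tested rose. Of neuronal genes not confined to the eye 3 of 9, 4 of 8 and 1 of 8 fell with the 3 compounds. Their sum was 329, 483 and 808 CPM at 20 µM valproic acid, against 471, 618 and 748 CPM in untreated larvae, and 269, 397 and 509 CPM at 33 mM hydroxyurea, against 413, 566 and 752 CPM. snap25a, a synaptic vesicle fusion protein, fell by 0.65 on the log2 scale with valproic acid and by 0.58 with hydroxyurea, while elavl4 was not called with valproic acid (−0.10). Of genes listed as pineal markers, 1 of 6 fell and 1 rose with valproic acid, 2 fell and 2 rose with hydroxyurea, and the median with warfarin was −0.26. Clock genes, a guide to sampling time, fell in 6 of 14, 4 of 12 and 1 of 11 cases, and their sum was 357, 550.1 and 870.4 CPM at 20 µM valproic acid, against 528, 733 and 1202 CPM in untreated larvae. The part of any of these lists in the levels of the set was not tested.

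The members were also compared larva by larva. With the group means removed, the correlation of log2 CPM between pairs of the 7 genes other than cnga3a had a median of 0.654 over 21 pairs in the 160 larvae of the valproic acid experiment (0.403 for gnat1 and grk7a to 0.826 for gnat2 and arr3a). It was 0.57 in the hydroxyurea experiment (0.412 to 0.762) and 0.193 in the warfarin experiment (−0.187 for gnat1 and pde6c to 0.533 for gnat2 and pde6c), where gnat1 had correlations between −0.187 and 0.074 with the other 6 genes. These values describe larvae that share a library depth and an RNA sample, and carry no test. The genes outside the set with the profile most like the mean of its 6 cone forms other than cnga3a over the 48 group means were gnb5b (r = 0.952), prph2a (0.943), opn1mw1 (0.94), gngt2b (0.929) and si:dkey-183j2.10 (0.929), among 14783 genes. gnat1, the rod form of the set, reached 0.872 and ranked 79th. The cone form arr3a, itself part of that mean, reached 0.898 and ranked 40th. The rod transducin gamma gene gngt1 reached 0.926 and ranked 15th. gnb5b, a beta subunit that works with the RGS9 protein in transducin shut-off, fell by 1.41, 1.31 and 0.45 on the log2 scale at the highest doses of valproic acid, hydroxyurea and warfarin.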

How the data were processed

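RNA-Seq libraries of single whole larvae were made by Lasy-Seq. The authors deposited estimated counts per gene, against GRCz11 per the submitters' processing notes, which also name Seurat 5.1.0. The aligner and counter are not given in the sources used here. In 24 larvae 52 values were not whole and were rounded, none of them in the set. Columns were joined to larvae by name.

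Genes were kept by filterByExpr over strain and dose groups (minimum count 10, minimum total 15), scaled by TMM and tested by edgeR 4.0.16 (quasi-likelihood, R 4.3.3, limma 3.58.1) with strain and dose as terms. Group means gave within-strain contrasts and the interaction, and untreated larvae the strain contrasts. Benjamini-Hochberg adjustment ran over all genes tested. Count ratios used a pseudocount of 0.5. DESeq2 1.42.0, its size factors, no filter, depth, larva number, left-out strains and left-out larvae were alternatives. The code was tested on simulated data.

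The members and lists were chosen with earlier results of these data known. Named were all members found, the 2 genes of each list with most counts where a result turned on them, genes of the same subunit, and the 5 most alike genes. nr2e3, tbx2b, prdm1a, rpe65a and the genes of the closing observations were named after their values were seen. Gene names were checked in a table of assembly GRCz12tu, from which no coordinates were taken. Sequences were not used here.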

Additional observations from a re-analysis of the deposited data

Results flagged for a closer look

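Among 336 groups of 4 to 8 larvae (7 genes over 48 groups), 29 (8.63%) had 1 larva set apart from the rest by Dixon's criterion, where chance marks about 1 in 20 independent groups. The same larva can be marked for several genes that vary together, so the groups are not independent and the shares are not compared. Values are CPM, with the next larva in parentheses. Among untreated larvae, the lowest AB larva of the hydroxyurea experiment had 134.5 (200.2) for arr3a and 243.2 (405.6) for gnat2, and the lowest AB larva of the valproic acid experiment 29.73 (64.76) for grk7a. The highest untreated TU larva of the valproic acid experiment had 699.9 (410.9) for gnat2 and 146.4 (95.27) for pde6c. In the warfarin experiment the highest untreated AB larva had 216.5 (110) for arr3b, the highest untreated TU larva 192.8 (150.8) for arr3a, and the lowest untreated RW larva 100.1 (113.9) for gnat1.

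At the lower doses of valproic acid, the highest PET larva for arr3a at 1 µM had 285.4 (218.8). A different PET larva was highest for grk7a at 1 µM, with 162.5 (65.51). At 5 µM the lowest AB larva had 272.7 (703.4) for gnat2 and 47.09 (110.7) for pde6c, the lowest WIK larva 242.1 (483.5) for gnat2 and 41.04 (98.48) for pde6c, and the lowest RW larva 208.4 (383.8) for arr3a. Also at 5 µM, the highest larva had 261.9 (178.9) for arr3a in TU, and for rcvrn3 332.2 (248.5) in WIK and 392 (311.7) in RW. At 20 µM the highest TU larva had 288.1 (148.2) for arr3a, 66.04 (31.01) for pde6c and 195.7 (110.9) for rcvrn3, and the highest AB larva 152.8 (83.82) for arr3b.

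With hydroxyurea, the lowest PET larva at 1.3 mM had 53.91 (74.05) for grk7a, the lowest TU larva at 1.3 mM 69.11 (162.3) for arr3b, the highest PET larva at 6.6 mM 261.2 (149) for rcvrn3, and the highest AB larva at 33 mM 60.53 (39.96) for gnat1. At 150 µM warfarin the lowest larva had 94.71 (122.5) for pde6c in AB and 50.53 (92.65) for pde6c in TU, and the highest TU larva 113.4 (77.47) for arr3b.

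The effect of dose differed between strains by the interaction test for 7 results. With valproic acid the edgeR adjusted p was 0.01804 for gnat1, 0.003318 for gnat2, 0.03812 for arr3a, 0.0001764 for arr3b, 0.01931 for grk7a and 0.003618 for rcvrn3, and with hydroxyurea it was 0.03114 for rcvrn3. Over all genes tested, 13.1% passed this test with valproic acid and 2.82% with hydroxyurea. With log10 total count as a covariate, arr3a, grk7a and rcvrn3 did not pass with valproic acid, nor rcvrn3 with hydroxyurea. A strain cannot be told apart from its clutch here.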

How the results depend on the processing

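The counts at the highest doses (7, 7 and 4 genes over strains, and 33, 24 and 8 within strains) stayed within 1.5 times under every alternative run. Leaving out each larva number in turn gave 23 to 24 within-strain calls for hydroxyurea and 6 to 8 for warfarin. The 1 call at the lower doses of valproic acid became 0 with the size factors of DESeq2, without the larvae under 0.5 times the median total, with log10 total count, and without RW, WIK or PET. For hydroxyurea 1 became 0 without TU or PET. For 150 µM warfarin 1 became 2 with the size factors, without larvae of low depth, with log10 total count and without TU, and 3 with the DESeq2 Wald test. With log10 total count the interactions became 3 (valproic acid) and 0 (hydroxyurea, 3 with no filter), and the calls among untreated strains 3, 3 and 1 for the 3 compounds. The last was 1 also with the size factors and without larvae of low depth. The ratio gnat1 over gnat2 at 300 µM warfarin was 0.1925 without TU (permutation p = 0.143), and arr3b over arr3a −0.218 without PET (permutation p = 0.204).

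Of the log2 fold changes, 40 changed sign, none of them called. At 1 µM valproic acid, leaving out PET gave gnat1 0.08859, gnat2 0.03782, pde6c 0.06439, arr3b 0.05559, cnga3a 0.02396 and rcvrn3 0.0305. Leaving out larvae of low depth gave gnat1 0.05905 and pde6c 0.02148, and leaving out TU gave gnat1 0.00612. grk7a was −0.0748 without AB, −0.04806 without RW and −0.05047 without WIK, and cnga3a was 0.03287 without AB. At 5 µM, leaving out PET gave gnat2 0.008757, arr3b 0.2348, grk7a 0.1525 and cnga3a 0.143, leaving out larvae of low depth gave gnat2 0.02239, arr3b 0.1544 and grk7a 0.07587, and cnga3a was 0.186 without AB. At 1.3 mM hydroxyurea pde6c was 0.0182 and grk7a 0.02507 without TU, and rcvrn3 −0.016 without PET. At 6.6 mM arr3b was −0.03835 without PET and cnga3a 0.02496 without larvae of low depth. At 150 µM warfarin arr3a was 0.008097 with no filter, 0.0137 without larvae of low depth, 0.004929 without AB and 0.001408 without TU, and at 300 µM −0.02964 without TU. Within strains at 300 µM warfarin, leaving out 1 larva number at a time gave −0.0841 to 0.2544 for arr3b and −0.001203 to 0.299 for rcvrn3 in TU, −0.08169 to 0.2635 for arr3a, −0.1456 to 0.08393 for arr3b and −0.1893 to 0.09799 for rcvrn3 in RW, and −0.1983 to 0.07405 for rcvrn3 in PET. The cause was not tested in any of these.

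The deviations of larvae with the same number had median correlations of 0.004, 0 and −0.001 in the valproic acid, hydroxyurea and warfarin experiments. The highest were 0.459, 0.169 and 0.156, and 25 of 240, 8 of 146 and 3 of 74 pairs were over 0.1. With larva number as a replicate block the counts of genes called were unchanged, and only grk7a at 1 µM valproic acid changed sign (−0.003994). The within-strain fit without larvae of low depth was not run for hydroxyurea because a group was left empty. Depth limits cnga3a most, with a median of 6 counts or fewer per larva in untreated larvae.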

Other observations

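At the lower doses, the other genes of the cascade were called as follows. At 5 µM valproic acid 5 of 17 rod forms fell (gnat1 included) and 1 of 19 cone forms (pde6ha), among 1.80% of all genes tested. The gnat1 call was lost in several alternative fits, as given above. rho, the rod opsin, had a mean of 254 ± 168 CPM at 5 µM, against 499 ± 320 CPM in untreated larvae (SD, n = 40 each), and its log2 fold change was −1.07 (SE 0.16, edgeR adjusted p = 9.47e-07). The rod transducin gamma gene gngt1 (−0.64), the rod arrestin gene sagb (−0.68) and the rod phosphodiesterase gamma gene pde6gb (−0.60) were the others. rho, gngt1, sagb and pde6gb were not refitted under the alternatives. Of all genes tested, 379 were lower at 5 µM, against 37 in the fit without PET and 165 with log10 total count as a covariate. Whether rod and cone forms differed was not tested. At 150 µM warfarin the cone forms gnb3b (−0.44), gngt2b (−0.31) and gnat2 were lower, and the rod form gnat1, not called, was called without the larvae of low depth (adjusted p = 0.02721), without TU (0.009272) and by the DESeq2 Wald test (0.02791). There, 4 of 8 visual opsins were lower (opn1sw1 −0.49, opn1sw2 −0.44, opn1mw1 −0.37 and opn1lw2 −0.21), among 1.26% of all genes tested. These are cone opsins, as is every listed opsin other than rho. The rod opsin rho was not called, at −0.25 (SE 0.10, edgeR adjusted p = 0.2576), against an SE of 0.06 for opn1lw2. Genes of other lists were lower at these doses too. At 150 µM warfarin 6 of 11 lens genes were lower (median −0.46), against 1.26% of all genes tested. At 5 µM valproic acid 4 of 11 lens genes were lower, against 1.80%. So were 2 of 9 genes of the pigment epithelium and visual cycle and 2 of 9 neuronal genes not confined to the eye.

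At 6.6 mM hydroxyurea, where arr3a rose, slc24a2, a sodium, calcium and potassium exchanger of cones, rose as well (24.9 ± 8.79 CPM, against 16.3 ± 5.35 CPM in untreated larvae, SD, n = 28 and 24, log2 fold change 0.53, SE 0.14, edgeR adjusted p = 0.02922). In the same larvae 8 of 11 lens genes fell, against 0.487% of all genes tested, among them cryba4 (−0.58, SE 0.10), and the lens sum was 1848, 4324 and 5806 CPM, against 4497, 5829 and 6686 CPM in untreated larvae.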
